A study of Mus musculus with 8 samples.

Results

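Neurexins are presynaptic adhesion proteins, and neuroligins and leucine-rich repeat transmembrane proteins (LRRTMs) are postsynaptic partners that bind them across the synaptic cleft. Together they help to organise synapses in the cortex. The neuroligins recruit postsynaptic scaffolds, with Nlgn1 known for excitatory and Nlgn2 for inhibitory synapses, while the LRRTMs act mainly at excitatory synapses. Described here are 9 genes of the 15437 in the count table, chosen by name: the neurexins Nrxn2 and Nrxn3, the neuroligins Nlgn1, Nlgn2 and Nlgn3, and Lrrtm1, Lrrtm2, Lrrtm3 and Lrrtm4. All 9 passed the minimum of 20 CPM (counts scaled to each library's total) summed over the libraries and were tested among 12493 genes.

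The study asked which genes are expressed in the neurons of the temporal association cortex (TeA) that are activated by auditory fear conditioning. Arc-dVenus+ cells, which carry a fluorescent reporter driven by the promoter of the immediate early gene Arc, were sorted by hand. The 5 sorted pools came from 3 fear-conditioned (FC) and 2 shock-only mice, and bulk TeA tissue was taken from 1 FC mouse and from 2 that were shocked only, with 1 mouse per library. All animals were male C57BL/6 mice of the genotype Arc-dVenus +/-, aged 60 to 90 days, and all were killed 6 hours after the behaviour. FC mice heard 7 tones of 6 kHz, lasting 10 s and paired with a footshock of 1 s and 0.5 mA, and shock-only mice received 7 such footshocks with no tone. The pools are named by the numbers in their titles, as FC39, FC40, FC23, Shock30 and Shock33. A pool is a small sample of the cells of 1 mouse, and the slices had been treated with protease and with blockers of glutamate receptors and of sodium channels. No pool of Arc-dVenus-negative neurons was analysed here, so sorting and reporter status cannot be told apart.

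Total counts were 10223586 to 24151755 in the Arc-dVenus+ pools and 7110598 to 9846374 in bulk tissue, and 1500 to 2631 genes had no count in a pool against 108 to 131 in a bulk library. Member counts lay between 294, for Lrrtm1 in a bulk library, and 24169, for Nrxn3 in FC23. The counting error of the reads alone was thus at most 5.83%, which leaves out the sampling of RNA from few cells. Of 16 pan-neuronal markers tested, 10 rose in Arc-dVenus+ cells, and their summed level was 19410 to 27022 CPM in the pools and 11835 to 13838 CPM in bulk tissue. The excitatory marker Slc17a7, a vesicular glutamate transporter, averaged 867 ± 123 CPM in the pools and 497 ± 31.8 CPM in bulk tissue (SD, n = 5 and 3). Of 8 excitatory markers tested 4 rose and 1 fell, namely Camk2a. The summed excitatory list was lower in the pools, at 6140 to 7458 CPM against 7819 to 8682 CPM in bulk tissue. Camk2a, its most abundant gene, averaged 3565 ± 563 CPM in the pools and 6385 ± 406 CPM in bulk tissue. All 8 inhibitory neuron markers fell, to a sum of 33.5 to 43.3 CPM in the pools against 668 to 676 CPM in bulk tissue, and Dlx1 had no count in any pool. Of 7 astrocyte markers 6 fell, to a sum of 870 to 1484 CPM in the pools against 7012 to 8160 CPM in bulk tissue. All 4 oligodendrocyte markers tested, 3 of 5 microglial ones, all 3 endothelial ones and 1 of 4 of oligodendrocyte precursors fell too. Olig2 had no count in any pool, nor had Mag, Opalin, C1qa and Cldn5, which were under the minimum for testing. These cell types move with every comparison of pools and bulk tissue below. There a higher share of neurons, more RNA per neuron and the use of few dissociated, hand-picked cells in place of tissue cannot be told apart. The part of these cell types in the members' results was not tested.

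In Arc-dVenus+ cells 6 of the 9 members rose relative to bulk tissue, and none fell. They were the neurexins Nrxn2 and Nrxn3, the neuroligin Nlgn1, and Lrrtm1, Lrrtm3 and Lrrtm4. Among all genes tested 6.17% were called higher and 6.85% lower. The call was an adjusted p under 0.05 in edgeR's quasi-likelihood test with Benjamini-Hochberg adjustment over all 12493 genes. Fold changes here and below were computed after TMM scaling between libraries, while CPM values were scaled to the library's total only. A fold change therefore differs from the ratio of the CPM values beside it. For Nrxn3 the ratio of mean CPM was 2.30 and the fold change 2.74. Nrxn2, Nrxn3 and Lrrtm1 were also over 2-fold higher, which held for 3.13% of all genes. In 7 of the 9 members every pool lay above every bulk library in CPM, against 5.97% of all genes. The exceptions were Nlgn2 and Lrrtm2. The median log2 fold change of the 9 members was 0.90, beside 0.10 for all genes tested. Genes of neurons rose more generally. The median was 0.62 for the 16 pan-neuronal markers tested, of which 10 rose. For the 8 excitatory markers, of which 4 rose and 1 fell, it was 0.67.

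RefSeq promoter sequences (GRCm38.p6, 250 bases before to 50 after the start of a transcript) were examined for 6 members with 10 start sites. No window of Nrxn2, Nlgn3 or Lrrtm2 was searched, so nothing can be said of motifs in these members. Both strands were searched for the activity-linked motifs CRE (TGACGTCA), its core (TGACG), AP-1 (TGANTCA) and EGR (GCGNGGGCG), and for a TATA box (TATAAA). A full CRE is also a match of the core. The CRE core was found in Nlgn2, an AP-1 match in the second Nrxn3 start site and TATA matches in the first Lrrtm4 start site. They were found in 20.8%, 7.81% and 13.6% of all 32851 promoters listed. No CRE or EGR match was found in the 10 windows, against 1.79% and 5.55% of all promoters. Shown are the windows of the most abundant member and of an uncalled neuroligin, which held a match (in capitals), and that of Lrrtm1, the member with the largest fold change, which held none. They lie at chr12:88953140-88953439 (plus strand), chr11:69837735-69838034 (minus strand) and chr6:77242227-77242526 (plus strand).
Nrxn3, start site 2: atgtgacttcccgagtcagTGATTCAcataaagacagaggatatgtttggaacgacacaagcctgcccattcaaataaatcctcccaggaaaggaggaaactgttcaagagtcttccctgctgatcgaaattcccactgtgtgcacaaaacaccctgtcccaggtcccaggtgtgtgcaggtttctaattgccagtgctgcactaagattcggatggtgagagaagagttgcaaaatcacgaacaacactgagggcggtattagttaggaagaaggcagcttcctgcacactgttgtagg
Nlgn2: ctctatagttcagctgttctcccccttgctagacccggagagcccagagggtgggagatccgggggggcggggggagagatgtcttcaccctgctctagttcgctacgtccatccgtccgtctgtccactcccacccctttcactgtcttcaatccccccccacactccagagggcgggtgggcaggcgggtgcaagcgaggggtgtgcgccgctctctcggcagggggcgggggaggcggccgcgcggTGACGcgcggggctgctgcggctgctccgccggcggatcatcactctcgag
Lrrtm1: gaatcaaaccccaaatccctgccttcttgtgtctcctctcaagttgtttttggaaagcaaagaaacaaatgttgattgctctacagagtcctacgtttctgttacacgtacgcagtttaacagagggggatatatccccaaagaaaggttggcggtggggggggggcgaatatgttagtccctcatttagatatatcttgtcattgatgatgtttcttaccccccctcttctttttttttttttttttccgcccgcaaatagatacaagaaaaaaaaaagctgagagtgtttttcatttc
The AP-1 match begins 231 bases before the Nrxn3 start base and the CRE core 1 base before that of Nlgn2. Both TATA matches of Lrrtm4 lie on the strand opposite to the gene, 115 and 108 bases before its start base. The letters are a description and no binding was measured.

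**Figure D1:**
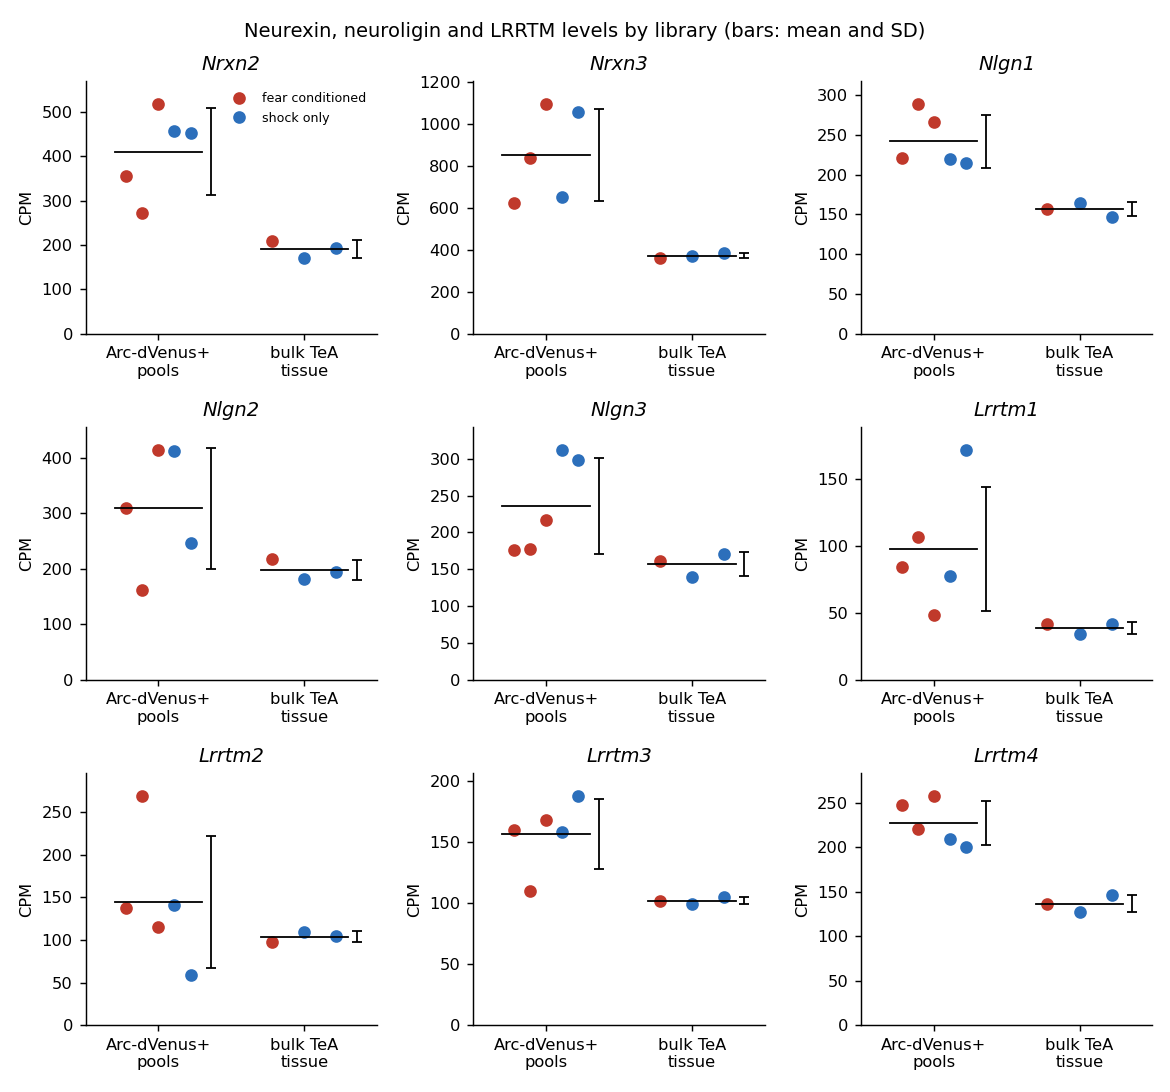
CPM of the 9 members in each library (y axis, from 0), with Arc-dVenus+ pools on the left and bulk TeA tissue on the right of each panel, red for FC and blue for shock only, a line at the mean and a bar of 1 SD. Pools and bulk libraries are separate for Nrxn2, Nrxn3, Nlgn1, Nlgn3, Lrrtm1, Lrrtm3 and Lrrtm4, and overlap for Nlgn2 and Lrrtm2.

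Nrxn3 was the most abundant member. It had 622, 838 and 1094 CPM in the FC pools (FC39, FC40 and FC23) and 650 and 1054 CPM in the shock-only pools (Shock30 and Shock33), against 361 CPM in FC bulk tissue and 368 and 384 CPM in shock-only bulk tissue. The lowest pool was thus well above the highest bulk library, and FC and shock-only pools were interleaved. Nrxn3 rose 2.74-fold, a log2 fold change of 1.46 (SE 0.22, adjusted p = 0.0015 in edgeR's quasi-likelihood test), larger than that of 96.8% of the genes tested. The gene encodes a neurexin with a long alpha and a short beta form, which gene-level counts do not separate, and spans 1612 kb of chromosome 12 (mm9 89961320 to 91573375, plus strand).

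Nrxn2, another neurexin, had 354, 271 and 517 CPM in the FC pools and 457 and 452 CPM in the shock-only pools, against 209 CPM in FC bulk tissue and 170 and 193 CPM in shock-only bulk tissue. All pools again exceeded bulk tissue, with FC40 the lowest. Its log2 fold change was 1.37 (SE 0.23, adjusted p = 0.00292), or 2.58-fold. Nrxn2 lies on chromosome 19 (mm9 6418731 to 6544169, plus strand), and 669 of its 13816 exonic bases are shared, on the opposite strand, with the urate transporter gene Slc22a12, which had 0 to 2.64 CPM in the pools and 0.508 to 1.22 CPM in bulk tissue.

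The neuroligins were called less uniformly. Nlgn1, the neuroligin of excitatory synapses, had 221, 289 and 266 CPM in the FC pools and 220 and 215 CPM in the shock-only pools, against 157 CPM in FC bulk tissue and 165 and 147 CPM in shock-only bulk tissue. The pools were close to each other and all above bulk tissue, and Nlgn1 rose 1.85-fold (log2 0.89, SE 0.17, adjusted p = 0.0059). Nlgn2, the neuroligin of inhibitory synapses, had a like fold change of 1.87 (log2 0.90) but a wider spread (SE 0.30), and its adjusted p was 0.0756. It had 310, 162 and 414 CPM in the FC pools and 413 and 245 CPM in the shock-only pools, against 216 CPM in FC bulk tissue and 182 and 195 CPM in shock-only bulk tissue. In CPM, before TMM scaling, FC40 was below all 3 bulk libraries. Without FC40 the log2 fold change of Nlgn2 was 1.07 with an adjusted p of 0.0135 in edgeR. With any other library left out Nlgn2 was not called, at an adjusted p of up to 0.269.

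Nlgn3, which is found at both excitatory and inhibitory synapses, had 176, 178 and 216 CPM in the FC pools and 312 and 298 CPM in the shock-only pools, against 162 CPM in FC bulk tissue and 139 and 170 CPM in shock-only bulk tissue. The FC pools lay just above bulk tissue and the shock-only pools well above it. Its log2 fold change of 0.85 (SE 0.25) had an adjusted p of 0.0511 and so just missed the call. With 1 of the 8 libraries left out in turn, it was called 2 times, at 0.0335 without FC39 and at 0.0385 without FC40. With the other libraries left out it was not called, at an adjusted p of up to 0.233. Nlgn1 lies on chromosome 3 (mm9 25330733 to 26032656, minus strand), Nlgn2 on chromosome 11 (69636624 to 69651286, minus strand) and Nlgn3 on chromosome X (98491178 to 98521302, plus strand). On the same strand 749 of the 11008 exonic bases of Nlgn3 are shared with Med12, a Mediator subunit, which had 6.68 to 41.8 CPM in the pools and 34.0 to 34.5 CPM in bulk tissue.

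The LRRTMs held both the largest fold change and the smallest among the members. Lrrtm1 had 84.4, 107 and 48.0 CPM in the FC pools and 77.6 and 172 CPM in the shock-only pools, against 41.6 CPM in FC bulk tissue and 33.8 and 41.3 CPM in shock-only bulk tissue. FC23 was only slightly above bulk tissue and Shock33 was the highest pool. The 3.00-fold difference (log2 1.59) had an SE of 0.39 and an adjusted p of 0.0225, and the call was lost when any 1 of the bulk libraries was left out, at an adjusted p of 0.09 to 0.122. Lrrtm2 differed by 1.66-fold (log2 0.73, SE 0.39, adjusted p = 0.294), and by a log2 of 0.38 without FC40 and of 0.22 in the shock-only libraries alone. It had 137, 269 and 115 CPM in the FC pools and 141 and 59.4 CPM in the shock-only pools, against 97.3 CPM in FC bulk tissue and 110 and 105 CPM in shock-only bulk tissue. Shock33, the highest pool for Lrrtm1, was the lowest for Lrrtm2 and the only one below bulk tissue.

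Lrrtm3 and Lrrtm4 varied less. Lrrtm3 had 160, 110 and 169 CPM in the FC pools and 158 and 188 CPM in the shock-only pools, against 102 CPM in FC bulk tissue and 99.6 and 105 CPM in shock-only bulk tissue, a log2 fold change of 0.88 (SE 0.21, adjusted p = 0.0198). Lrrtm4, which in mouse binds heparan sulfate on neurexins and glypicans, had 247, 220 and 258 CPM in the FC pools and 209 and 200 CPM in the shock-only pools, against 136 CPM in FC bulk tissue and 127 and 146 CPM in shock-only bulk tissue. It had the smallest spread of the members, with a coefficient of variation of 10.9% over the pools, and rose 1.98-fold (log2 0.99, SE 0.16, adjusted p = 0.00274). Its identifier in the table, NR_027323, has the prefix of a non-coding transcript record, and 1543 of its 6147 exonic bases are shared with the opposite-strand transcript Gm4409. The call of Lrrtm3, like that of Lrrtm1, was lost when any 1 of the bulk libraries was left out, at an adjusted p of 0.0935 to 0.118, and that of Nlgn1 was lost at 0.0509 without the FC bulk library and at 0.0511 without the second shock-only one. Nrxn2, Nrxn3 and Lrrtm4 were called whichever library was left out.

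Lrrtm1, Lrrtm2 and Lrrtm3 lie inside introns of alpha-catenin genes, which encode adherens junction proteins, on the opposite strand and with no shared exonic base. Lrrtm1 (chromosome 6, mm9 77192683 to 77207785, plus strand) lies in Ctnna2, Lrrtm2 (chromosome 18, 35368665 to 35374678, minus strand) in Ctnna1 and Lrrtm3 (chromosome 10, 63391220 to 63553025, minus strand) in Ctnna3. Lrrtm4 lies on chromosome 6 (79968871 to 80760137, plus strand) in no such gene. The hosts were not called. Ctnna2 averaged 83.5 ± 28.0 CPM in the pools and 70.4 ± 9.25 CPM in bulk tissue (SD, n = 5 and 3; log2 0.51, adjusted p = 0.375), and Ctnna1 averaged 12.7 ± 14.3 CPM in the pools and 42.6 ± 2.99 CPM in bulk tissue (log2 -1.48, adjusted p = 0.462). Ctnna3, at 0 to 0.411 CPM in the pools and 1.08 to 2.54 CPM in bulk tissue, was under the minimum for testing.

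The fold changes depended on the scale. TMM scaling, used above, assumes that most genes do not differ, and under it the median gene was 0.10 higher in the pools on the log2 scale. When the libraries were instead scaled to the pan-neuronal markers, the median over all genes was -0.56, and every member kept a positive log2 fold change, between 0.05 for Lrrtm2 and 0.93 for Lrrtm1. Nrxn3 was then the only member called (log2 0.81, adjusted p = 0.0469), among 0.752% of all genes called higher. Nrxn2 had a log2 fold change of 0.70 with an adjusted p of 0.0681, Lrrtm4 one of 0.33 with 0.26, and Nlgn1 one of 0.23 with 0.476. A change of scaling shifts all genes alike, so that each member keeps nearly the same distance to the median gene by construction.

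**Figure D2:**
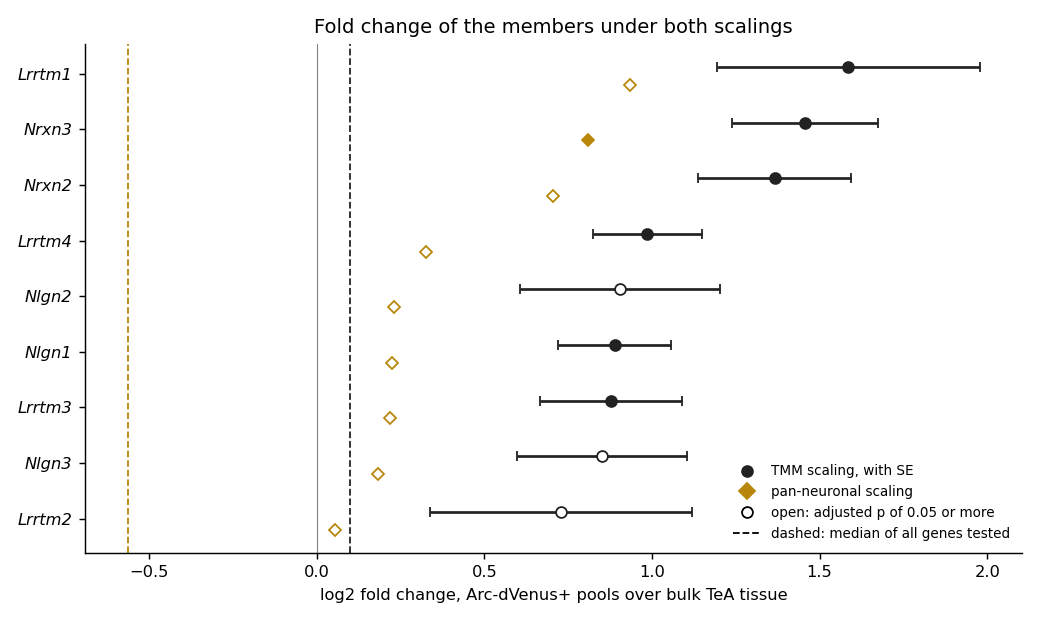
Log2 fold change of each member, Arc-dVenus+ pools over bulk TeA tissue (x axis), under TMM scaling (black circles, with SE) and under pan-neuronal scaling (gold diamonds), where open symbols did not pass an adjusted p of 0.05 and dashed lines mark the median of all genes. Each symbol lies right of the median drawn for its scaling, and Nrxn3, at 0.81, is the only filled diamond.

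Levels of different genes were compared per kilobase of exonic length (the union of exons in GENCODE M1, since the length of the counted transcript is not given), as a description. In the pools the order was Nrxn3 (67.5 ± 17.4 CPM per kb), Nlgn1 (55.5 ± 7.63), Nlgn2 (53.4 ± 18.8), Lrrtm3 (37.0 ± 6.75), Lrrtm4 (36.9 ± 4.02), Lrrtm1 (32.2 ± 15.4), Nrxn2 (29.7 ± 7.05), Lrrtm2 (25.5 ± 13.6) and Nlgn3 (21.4 ± 5.94; SD, n = 5). Every neighbouring pair in this order had overlapping ranges over the pools. Compared within each pool, a gene was above the next in the order in 2 to 4 of the 5 pools, so that no neighbouring pair kept its order in all of them. In bulk tissue Nlgn1 stood first, at 35.9 ± 2.01 CPM per kb, and Lrrtm1 last, at 12.8 ± 1.45 CPM per kb (SD, n = 3).

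Because Nrxn2, Nrxn3 and several of their postsynaptic partners were higher in the pools, the balance within each family was compared as a log2 ratio of counts within a library, which no scaling between libraries changes. Over 10 pairs within the families none was called between Arc-dVenus+ pools and bulk tissue in the two-sided exact permutation test over the 8 libraries, and 0 pairs had an unadjusted p under 0.05. The smallest p this design allows is 0.0357 before adjustment and 0.357 after it for 1 pair alone, so that at least 8 pairs would have had to reach it together to be called, and the test says little of single pairs. The log2 ratio of Nrxn3 to Nrxn2 averaged 1.05 ± 0.42 in the pools and 0.97 ± 0.16 in bulk tissue, and that of Nlgn1 to Nlgn2 averaged -0.28 ± 0.67 in the pools and -0.34 ± 0.17 in bulk tissue (SD, n = 5 and 3). The largest difference was that of Lrrtm1 to Lrrtm2, 0.90 higher in the pools (exact p = 0.143) but 0.38 higher without Shock33, with -0.70, -1.34 and -1.26 in the FC pools and -0.86 and 1.54 in the shock-only pools, against -1.23 in FC bulk tissue and -1.69 and -1.34 in shock-only bulk tissue. Shock33 was the only library with more counts of Lrrtm1 than of Lrrtm2. For each pair the pools were spread more widely than the bulk libraries.

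**Figure D3:**
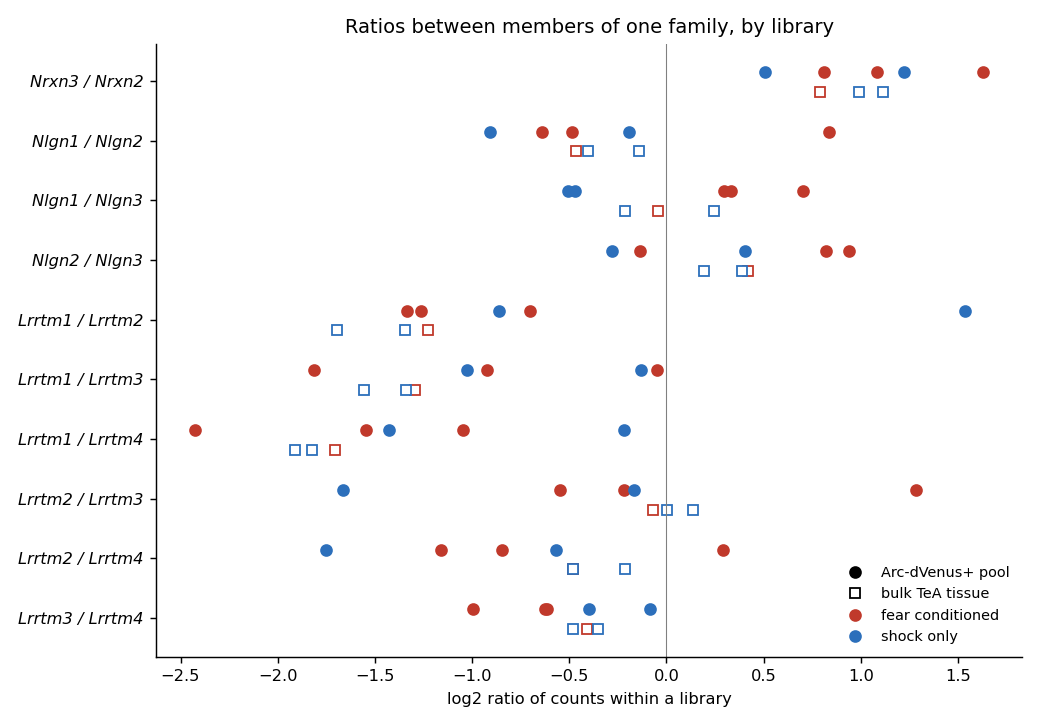
Log2 ratio of counts of 2 members of a family within a library (x axis), with Arc-dVenus+ pools as filled circles above and bulk TeA tissue as open squares below, red for FC and blue for shock only. The pools are spread more widely than the bulk libraries in each pair, and Shock33 stands alone at 1.54 for Lrrtm1 over Lrrtm2.

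No member was called between FC and shock-only pools in edgeR's quasi-likelihood test over 11558 genes, where the share of all genes called was 0.0%. With 3 pools against 2, the members' SEs were 0.26 to 0.52 on the log2 scale. The lack of a call therefore does not show that the members were alike. The paper also states that its experiments lacked the power to exclude expression differences between these conditions. At an unadjusted p under 0.05 stood 1 member and 720 genes. DESeq2 called 120 genes, edgeR's exact test 8 and limma voom 0, with no member among them. The median log2 difference of the members was -0.21, beside 0.00 for all genes. The member with the lowest p was Nlgn3, which averaged 190 ± 22.8 CPM in FC pools and 305 ± 10.0 CPM in shock-only pools (SD, n = 3 and 2; log2 -0.73, SE 0.26, adjusted p = 0.793 in edgeR's quasi-likelihood test). All 3 FC pools lay below both shock-only pools for Nlgn3, which was also so for 8.5% of all genes. Med12, which shares exonic bases with Nlgn3, had 6.68 to 9.11 CPM in FC pools and 10.4 and 41.8 CPM in shock-only pools, and its part in the Nlgn3 values was not tested.

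The next largest differences were in Lrrtm2 (log2 0.75, SE 0.52, adjusted p = 0.866) and Lrrtm1 (log2 -0.70, SE 0.49, adjusted p = 0.869), and both moved with single pools. Without Shock33 the log2 difference of Lrrtm1 was -0.01 and that of Lrrtm2 was 0.26, and without FC40 that of Lrrtm2 was 0.25. Nrxn3 averaged 851 ± 236 CPM in FC pools and 852 ± 285 CPM in shock-only pools (SD, n = 3 and 2). The interaction, which asks whether the difference between FC and shock only was another in the pools than in bulk tissue, was called for 0.0% of 12493 genes in edgeR's quasi-likelihood test, and for no member. At an unadjusted p under 0.05 stood 308 genes and 0 members, DESeq2 called 11 genes and limma voom 0. Member interactions ranged from -0.82 for Lrrtm1 to 0.89 for Lrrtm2 on the log2 scale, and that of Nlgn3 was -0.79 (SE 0.37). With 1 FC bulk library, the spread of that group was taken from the others.

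**Figure D4:**
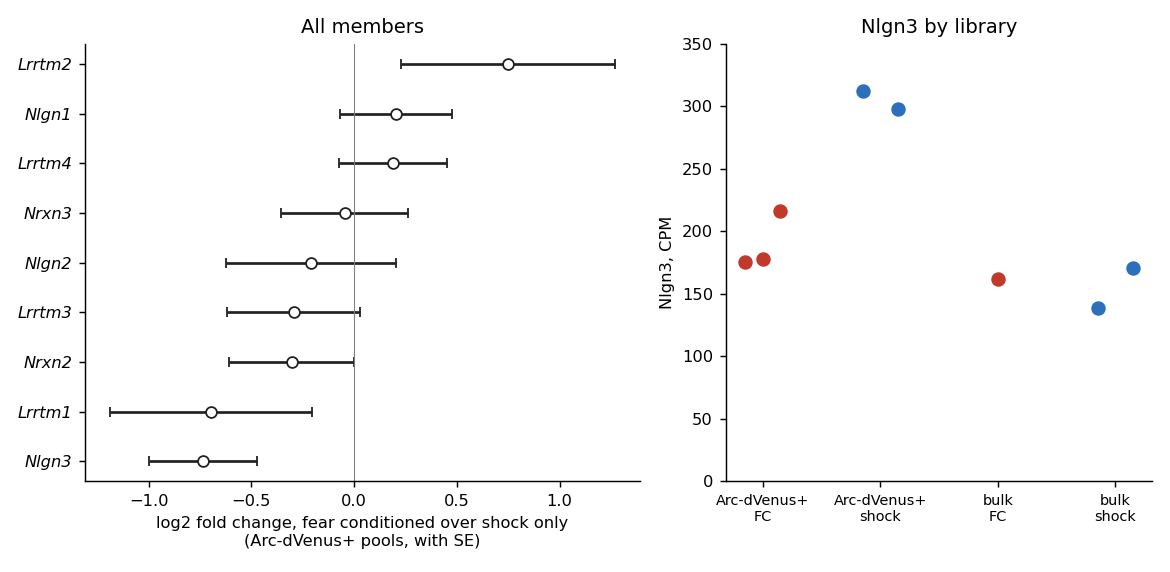
Left, log2 fold change of each member between FC and shock-only Arc-dVenus+ pools (x axis, with SE), where open circles mark that no member passed an adjusted p of 0.05. Right, CPM of Nlgn3 by library (y axis, from 0), with the 3 FC pools between 176 and 216 CPM and the 2 shock-only pools at 312 and 298 CPM.

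Of 83 tested genes on the partner lists, 24 rose in Arc-dVenus+ cells and 4 fell, beside 6.17% and 6.85% of all genes. Their median log2 fold change was 0.51. The lists also hold other synaptic adhesion organizers and the alpha-catenin host genes, which are not all partners of the members' products. Under pan-neuronal scaling 3 rose and 8 fell, beside 0.752% and 14.6% of all genes. On the list of neurexin ligands 3 of 12 rose and 1 fell, and whether each listed gene's product binds a neurexin was not tested. C1ql3, a secreted C1q-like protein that binds the adhesion receptor Bai3, had the largest rise of the partners, with 761, 744 and 574 CPM in the FC pools and 571 and 811 CPM in the shock-only pools, against 128 CPM in FC bulk tissue and 137 and 125 CPM in shock-only bulk tissue (log2 2.67, SE 0.17, adjusted p = 3.2e-05). All 5 pools were far above all 3 bulk libraries. Lphn3, a latrophilin, rose by a log2 of 1.32 (SE 0.20, adjusted p = 0.00159), and the calsyntenin Clstn1 by 1.06 (SE 0.21, adjusted p = 0.00684).

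Nxph1, a secreted ligand of alpha-neurexins, fell. It had 21, 1 and 0 counts in the FC pools and 0 in both shock-only pools, against 171 counts in FC bulk tissue and 192 and 182 in shock-only bulk tissue (adjusted p = 0.0226). The inhibitory neuron markers, given above, were low in the same pools, and their part was not tested. Heparan sulfate proteoglycans, to which Lrrtm4 binds, held 2 of the 4 genes that fell and none that rose among 7 tested. Sdc4, a syndecan, averaged 0.30 ± 0.30 CPM in the pools and 74.1 ± 6.26 CPM in bulk tissue, and the glypican Gpc5 averaged 2.03 ± 1.22 CPM in the pools and 31.7 ± 3.14 CPM in bulk tissue (SD, n = 5 and 3; adjusted p = 0.000119 and 0.005 in edgeR). Gpc4, a glypican, had 6.08 to 119.5 CPM in the pools and 10.7 to 14.1 CPM in bulk tissue and was not called (log2 1.87, SE 0.85, adjusted p = 0.207), nor was Gpc1 (log2 1.79, SE 0.61, adjusted p = 0.0865).

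Inside the presynaptic cell 3 of 11 scaffold genes rose, namely the liprin Ppfia2 (log2 0.96, adjusted p = 0.0337), syntenin Sdcbp (log2 0.91, adjusted p = 0.0269) and the Mint protein Apba2 (log2 0.67, adjusted p = 0.0466), and none rose over 2-fold. Lin7a, of the same complex as the neurexin-binding kinase Cask, was not called (log2 0.96, adjusted p = 0.0903). On the excitatory postsynaptic side 5 of 14 rose and 1 fell. Dlgap2 and Dlgap1, which link PSD-95 to Shank proteins, rose by log2 values of 1.21 and 0.78 (adjusted p = 0.00388 and 0.00983), and so did the membrane scaffold Magi3 (log2 0.97, adjusted p = 0.00755). Shank1 fell to 542 ± 88.9 CPM in the pools, against 1064 ± 88.9 CPM in bulk tissue (SD, n = 5 and 3; log2 -0.72, adjusted p = 0.0126).

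Among the inhibitory postsynaptic partners and neuroligin regulators, Lhfpl4, which links Nlgn2 to GABA-A receptors, rose by a log2 of 1.13 (SE 0.22, adjusted p = 0.00667 in edgeR). Gphn, the inhibitory scaffold gephyrin, averaged 69.9 ± 25.5 CPM in the pools and 70.0 ± 8.52 CPM in bulk tissue (SD, n = 5 and 3; log2 0.25, adjusted p = 0.71). Mdga2, which blocks the binding of neuroligins to neurexins, was not called either (log2 0.36, adjusted p = 0.3). Its direction and that of Gphn flipped under pan-neuronal scaling, and for Gphn also under library size scaling.

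Other synaptic adhesion organizers rose in 9 of 29 cases and fell in none, with a median log2 fold change of 0.62. The named ones were Cadm3, a homophilic adhesion protein (log2 1.08, SE 0.12, adjusted p = 0.000276), Lrrc4c, the netrin-G1 ligand (log2 1.06, SE 0.14, adjusted p = 0.00072), Slitrk5 (log2 1.32, SE 0.20, adjusted p = 0.00152) and Slitrk1 (log2 0.86, SE 0.15, adjusted p = 0.00334), the Slitrks being ligands of presynaptic receptor phosphatases. Of the 3 KH-domain splicing regulators that set neurexin splice forms in mouse, Khdrbs1 rose by a log2 of 1.17 (adjusted p = 0.0148) and Khdrbs3 by 1.00 (adjusted p = 0.0274), while Khdrbs2 had 1.18 to 19.9 CPM in the pools and 4.27 to 7.58 CPM in bulk tissue (adjusted p = 0.647). Splice forms themselves were not measured by these counts.

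Of the 21 named partners that were called, 10 were called whichever library was left out, among them C1ql3, Lphn3, Dlgap2, Gpc5, Sdc4, Slitrk1, Slitrk5, Lrrc4c and Cadm3. The other 11 lost the call when at least 1 of the bulk libraries was left out. Their highest adjusted p in edgeR was 0.0565 for Lhfpl4, 0.0556 for Clstn1, 0.0635 for Magi3, 0.0699 for Dlgap1, 0.0776 for Shank1, 0.0854 for Nxph1, 0.109 for Khdrbs1, 0.145 for Sdcbp, 0.17 for Khdrbs3, 0.182 for Ppfia2 and 0.23 for Apba2, and Apba2, Ppfia2, Sdcbp and Khdrbs3 also lost it without some pools.

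**Figure D5:**
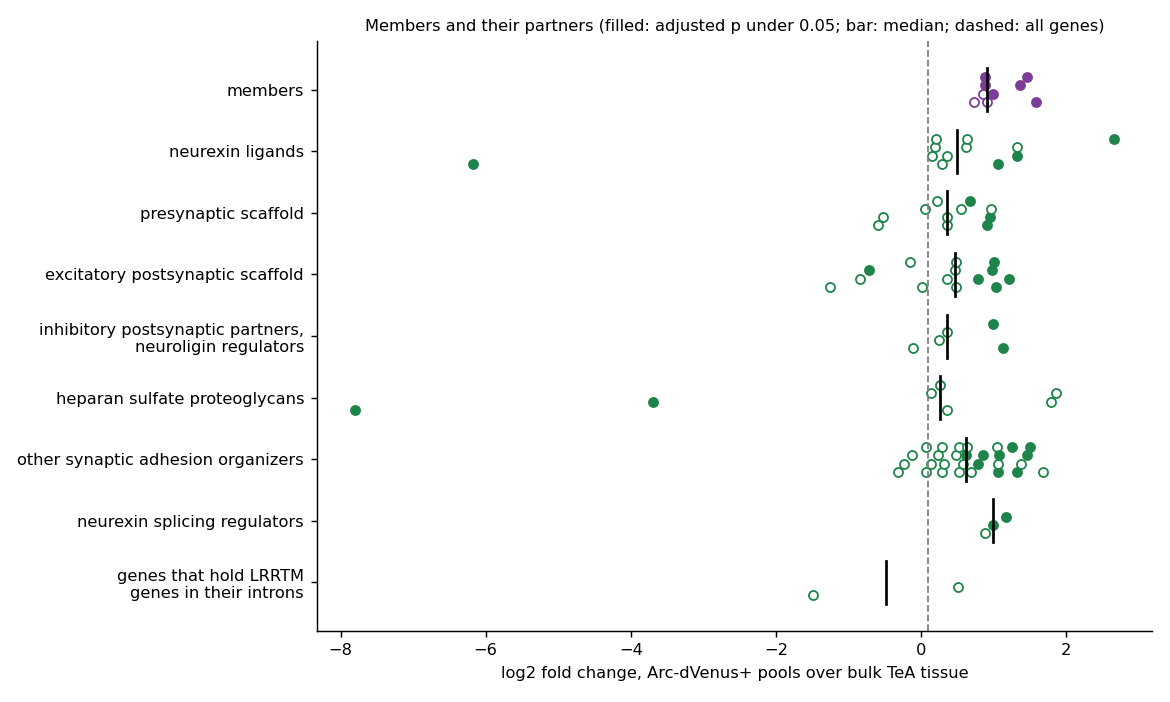
Log2 fold change, Arc-dVenus+ pools over bulk TeA tissue (x axis), of the 9 members (purple) and of the tested genes of 8 partner lists (green), filled where the adjusted p was under 0.05, with a bar at each list's median and a dashed line at the median of all genes. The members lie between 0.73 and 1.59, and the partner lists reach from -7.81 for Sdc4 to 2.67 for C1ql3.

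The genes whose levels most closely followed, over the 8 libraries, the member of each family with the highest mean CPM in the pools (not per kb) were found by the root mean square difference of centred log2(CPM + 0.5) values, as a description. For Nrxn3 they were Ppme1, a phosphatase methylesterase (0.11, against a median of 1.09 over all genes), the diacylglycerol kinase Dgkb (0.13) and the cholecystokinin receptor Cckbr (0.14). For Lrrtm4 they were cofilin Cfl1 (0.07, against a median of 0.91), the NMDA receptor subunit Grin1 (0.09) and the proton pump subunit Atp6v1g2 (0.11). Nlgn2, with its wide spread over the pools, had less close neighbours in Ergic1 (0.17, against a median of 0.94), Kpna2 (0.18) and Pa2g4 (0.18).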

How the data were processed

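RNA-seq of 5 Arc-dVenus+ pools and 3 bulk TeA libraries was analysed. Per the study's methods and the labels, cDNA was made with the Ovation RNA-Seq System V2, sequenced on an Illumina HiSeq2000 and aligned with RUM 1.11 to mm9, with unique reads kept and 1 RefSeq transcript used per gene; the counter and its strand setting are not given in the sources used here. The authors deposited raw counts per gene beside CPM values, which were counts divided by the library's total (checked to 0.0005 CPM). The authors' fold changes and p-values were not used, nor were 4 further sheets of 87, 63, 45 and 116 genes, which repeat rows of the first and hold no member.

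Counts were tested with edgeR 4.0.16 (quasi-likelihood, TMM scaling; factors 0.90 to 0.97 for pools and 1.10 to 1.13 for bulk tissue) in R 4.3.3, with Benjamini-Hochberg adjustment over all genes of at least 20 CPM in total (12.5 CPM among the 5 pools). The SE of a log2 fold change is its size over the square root of F. The alternatives were edgeR's exact test, DESeq2 1.42.0, limma 3.58.1 (voom), other scalings, no minimum, condition as covariate, shock-only libraries alone and leaving out each library. The tests were also run on simulated data, with differences larger than those of most members. That run gives no measure of power at the members' own differences. Ratios had 0.5 added to each count. Python 3.11.15 with scipy 1.17.1, numpy 2.4.6 and pandas 2.3.3 was used, and matplotlib 3.10.9 for figures. Positions come from GENCODE M1 (mm9). From each partner list the up to 4 genes of lowest p were named, beside all host genes; 1 of them is not reported here. The members, partner lists and tests were chosen with earlier results of these data known. No pair of libraries agreed within sampling noise. The number of cells per pool differs between the study's own descriptions, and the titles' numbers serve here as names only.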

Additional observations from a re-analysis of the deposited data

Results flagged for a closer look

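Among the 5 Arc-dVenus+ pools, 60 measures were checked for a single pool far from the rest, of which chance would flag about 1 in 20, and 5 were found, none of them the level of a member. Shock33 stood apart for the log2 ratio of Lrrtm1 to Lrrtm2, with a gap of 0.78 of the whole range, for Med12 (0.894), for Gpc4 (0.775) and for Slc22a12 (0.778). FC39 stood apart for Nxph1 (0.939), where it held 21 of the 22 counts found in the pools.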

How the results depend on the processing

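The sign of all 9 members' fold changes was positive in all 17 alternatives, but the number called was not stable. Of the members, 8 were called higher by edgeR's exact test and by DESeq2 (all but Lrrtm2; 7.48% and 10.5% of all genes), 7 under median-ratio (RLE) scaling, with no minimum and with condition as a covariate (Nlgn3 added in each; 6.88%, 6.17% and 5.72%), 5 by limma voom (Lrrtm1 lost; 3.96%) and 4 under library size scaling (Lrrtm1 and Lrrtm3 lost; 2.91%). Pan-neuronal scaling left 1 called and 0 over 2-fold, and 3 of the 83 partner genes higher and 8 lower, beside 0.752% and 14.6% of all genes. Library size scaling gave 15 of the 83 partner genes higher and 7 lower, beside 2.91% and 8.68% of all genes. In the shock-only libraries alone, 2 pools were set against 2 bulk libraries. There edgeR called 0 members, 0 members over 2-fold and 0 partner genes in either direction, and 0 of all 12505 genes. When each library was left out in turn, 3 to 8 members were called, 2 to 4 of them over 2-fold, with 11 to 28 partner genes higher and 2 to 6 lower. With a bulk library left out 3 or 4 members and 2.16% to 2.62% of all genes were called higher, and with a pool left out 6 to 8 members and 5.58% to 7.49%. The share of all genes called lower was 3.56% to 3.95% with a bulk library left out and 6.90% to 8.15% with a pool left out.

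The direction turned for Mdga2 (log2 -0.31) and Ctnna2 (-0.17) under pan-neuronal scaling, and for Gphn under pan-neuronal scaling (-0.39), library size scaling (-0.0070) and in the shock-only libraries (-0.14); none was called, and the cause was not tested. When each library was left out, the log2 ratio difference ranged between -0.059 and 0.22 for Nrxn3 to Nrxn2, -0.22 and 0.22 for Nlgn1 to Nlgn2, -0.084 and 0.22 for Nlgn1 to Nlgn3, -0.13 and 0.17 for Nlgn2 to Nlgn3 and -0.67 and 0.063 for Lrrtm2 to Lrrtm3. No member was called between FC and shock only in any alternative run. For the ratios the test could call no single pair under any setting. edgeR's exact test of the interaction was not run, since it compares only 2 groups. No paired analysis was possible because the labels of the pools give no replicate number that they share with another group, and each library comes from another mouse. Which of the number of bulk libraries and the spread between pools limits the members' calls more was not tested.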
